A study of Danio rerio with 16 samples.

Results

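The genes described here are those of axon and vessel guidance: the semaphorins, plexins, neuropilins, Slits, Robos, netrins, Unc5 receptors, Dcc, Eph receptors and ephrins. Their open chromatin was compared between the haemogenic endothelium (HE) of the zebrafish dorsal aorta and the aortic roof endothelium (ARE). The members are the peaks whose deposited nearest-gene symbol starts with the name of one of these families. There were 119 such peaks, nearest to 44 genes, among the 9466 peaks of the deposited lists. The symbol unc50, a gene of a Golgi protein outside guidance signalling, matches by its letters alone. Its 2 peaks were kept in the counts over all members.

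Chromatin accessibility was assayed with ATAC-seq, in which the Tn5 transposase inserts sequencing adapters into accessible DNA. The cells came from TgBAC(runx1P2:Citrine);Tg(kdrl:mCherry) embryos, labelled wild type (Wt) and raised to 28 to 30 hours post fertilization (hpf), so that both populations compared carry both transgenes. DP-R1hi cells (HE) were sorted as positive for mCherry with high Citrine, and DP-R1lo cells (ARE) as positive for mCherry with low Citrine. The kdrl:mCherry transgene marks endothelium. Citrine is driven by runx1 regulatory elements on a bacterial artificial chromosome, is also made in some spinal cord neurons, and its weak signal in the aortic roof is residual protein carried over from earlier stages. The paper reports stable Citrine protein in primitive erythrocytes too. ARE includes the sprouting inter-somitic vessels, and cells of pooled embryos were sorted together. The series holds 16 libraries: 3 of each of 5 sorted populations, with 2000 to 3000 cells each, and 1 genomic DNA control. The lists compare only DP-R1hi with DP-R1lo, and DN, SP-kdrl and DP-R1med were not analysed here.

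Each listed peak has the authors' mean concentration of normalized reads in DP-R1hi and in DP-R1lo, on a log2 scale. The authors computed these means after leaving out 1 of 3 replicates of each population. All differences below are DP-R1hi minus DP-R1lo on that log2 scale, so that negative values mark peaks more open in ARE. The lists hold no value per replicate. No error, test across replicates or library depth can therefore be given, and every peak is listed because the authors had called it differential. Peaks tested without such a call were not analysed here. The lowest mean listed was -0.14 for DP-R1hi and -0.27 for DP-R1lo. A peak with its closed population at that value has a difference set by the open population alone. Whether reads of the genomic DNA control were subtracted is not given in the sources used here. Coordinates are those of GRCz10, as deposited, and "nearest" refers to the nearest annotated transcription start site (TSS).

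Guidance molecules were first studied in growing axons, where ligands on or from one cell attract or repel another cell that carries the receptor. Endothelial cells use the same systems. Ephrin-B2 and EphB4 mark arteries and veins, semaphorins signal through plexin D1 to restrain sprouting, and Robo and Unc5 receptors act in vessel patterning. Around the stage studied, vessel sprouts leave the aortic roof, whereas cells of the aortic floor are about to leave the vessel wall as blood progenitors.

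Most guidance peaks were more open in ARE. Of 119 peaks, 89 (74.8%) were higher in DP-R1lo and 30 (25.2%) were higher in DP-R1hi. Among all 9466 listed peaks the share higher in DP-R1lo was 59.2%, and that higher in DP-R1hi 40.8%. The shares stand side by side without a test, since peaks of 1 locus are not independent and were listed for their difference. Ligand genes had 51 peaks higher in DP-R1lo (89.5%) and 6 higher in DP-R1hi, and receptor genes had 37 (61.7%) and 23. The receptor share in DP-R1lo thus lay near the 59.2% of all listed peaks. The receptor count turned on the Robo genes, which had 11 of the 23 receptor peaks higher in DP-R1hi.

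**Figure D1:**
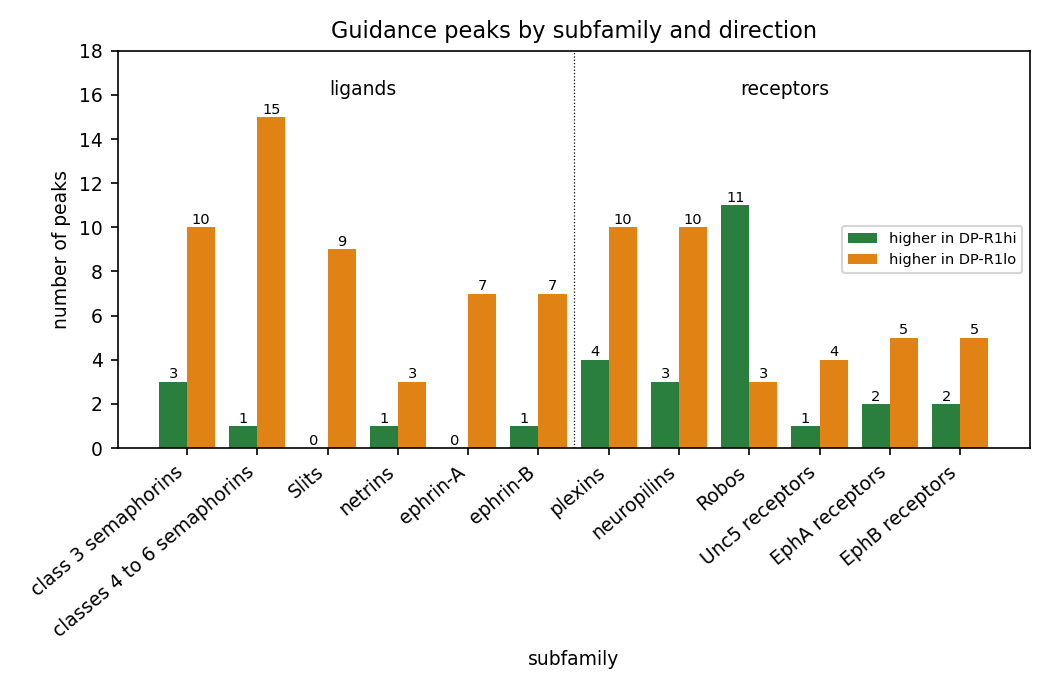
Number of guidance peaks (y axis) by subfamily (x axis), with green bars for peaks higher in DP-R1hi and orange bars for peaks higher in DP-R1lo. The 2 unc50 peaks are left out. Robos have 11 green against 3 orange, and Slits 0 green against 9 orange.

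The peaks higher in DP-R1lo had a median difference of -3.69 and ranged from -7.06 to -0.88. Over all listed peaks of that direction the median was -3.90. The peaks higher in DP-R1hi had a median difference of 3.09, with a range from 0.89 to 6.67, against 2.70 over all. The closed population was at its lowest value in 30 of the 89 peaks higher in DP-R1lo (33.7%, against 36.6% of all such peaks) and in 7 of the 30 higher in DP-R1hi (23.3%, against 18.8%). Without these peaks the medians were -3.03 and 2.77. An absolute difference of at least 2 was found for 97 guidance peaks (81.5%), against 76.0% of all listed peaks. Counted over all annotations, guidance peaks thus lay near the values over all peaks in size and in frequency of lowest values. By annotation, a lowest value was found in 42.9% of the intronic guidance peaks, against 29.9% of all intronic peaks. For intergenic peaks the shares were 23.5% and 30.2%.

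**Figure D2:**
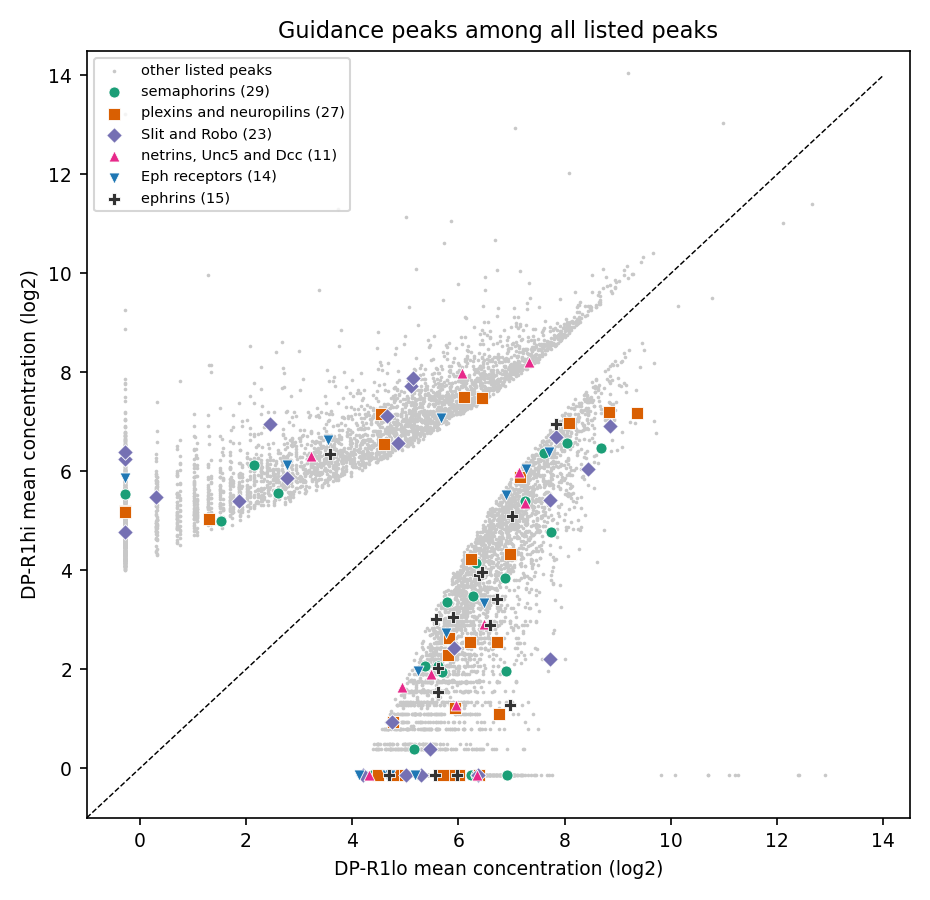
Mean log2 concentration in DP-R1lo (x axis) and DP-R1hi (y axis) for the 119 guidance peaks, coloured by family, over the other listed peaks in grey. The dashed line marks equal means, the netrin family includes the 2 unc50 peaks, and the rows of points at the edges are peaks at the lowest listed values, -0.14 for DP-R1hi and -0.27 for DP-R1lo.

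By gene, 26 of the 44 had peaks higher in DP-R1lo only (59.1%, against 45.9% of all 5023 genes with a listed peak), 5 had peaks higher in DP-R1hi only (11.4%, against 34.8%) and 13 had both kinds (29.5%, against 19.2%). The 5 genes with peaks higher in DP-R1hi only were robo3, ephb4a, sema3bl, sema6e and plxna1b. Guidance genes had more peaks each than other genes, with 9 of 44 having 1 peak against 2881 of 5023. Among genes with at least 2 peaks, 19 of 35 guidance genes had peaks higher in DP-R1lo only (54.3%, against 36.3% of 2142 genes) and 13 of 35 had both kinds (37.1%, against 45.1%). Of 75 pairs of consecutive peaks nearest to the same guidance gene, 51 (68.0%) pointed the same way, and over all genes the share was 68.4%. For pairs up to 10 kb apart it was 11 of 12 (91.7%), against 81.7%.

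**Figure D3:**
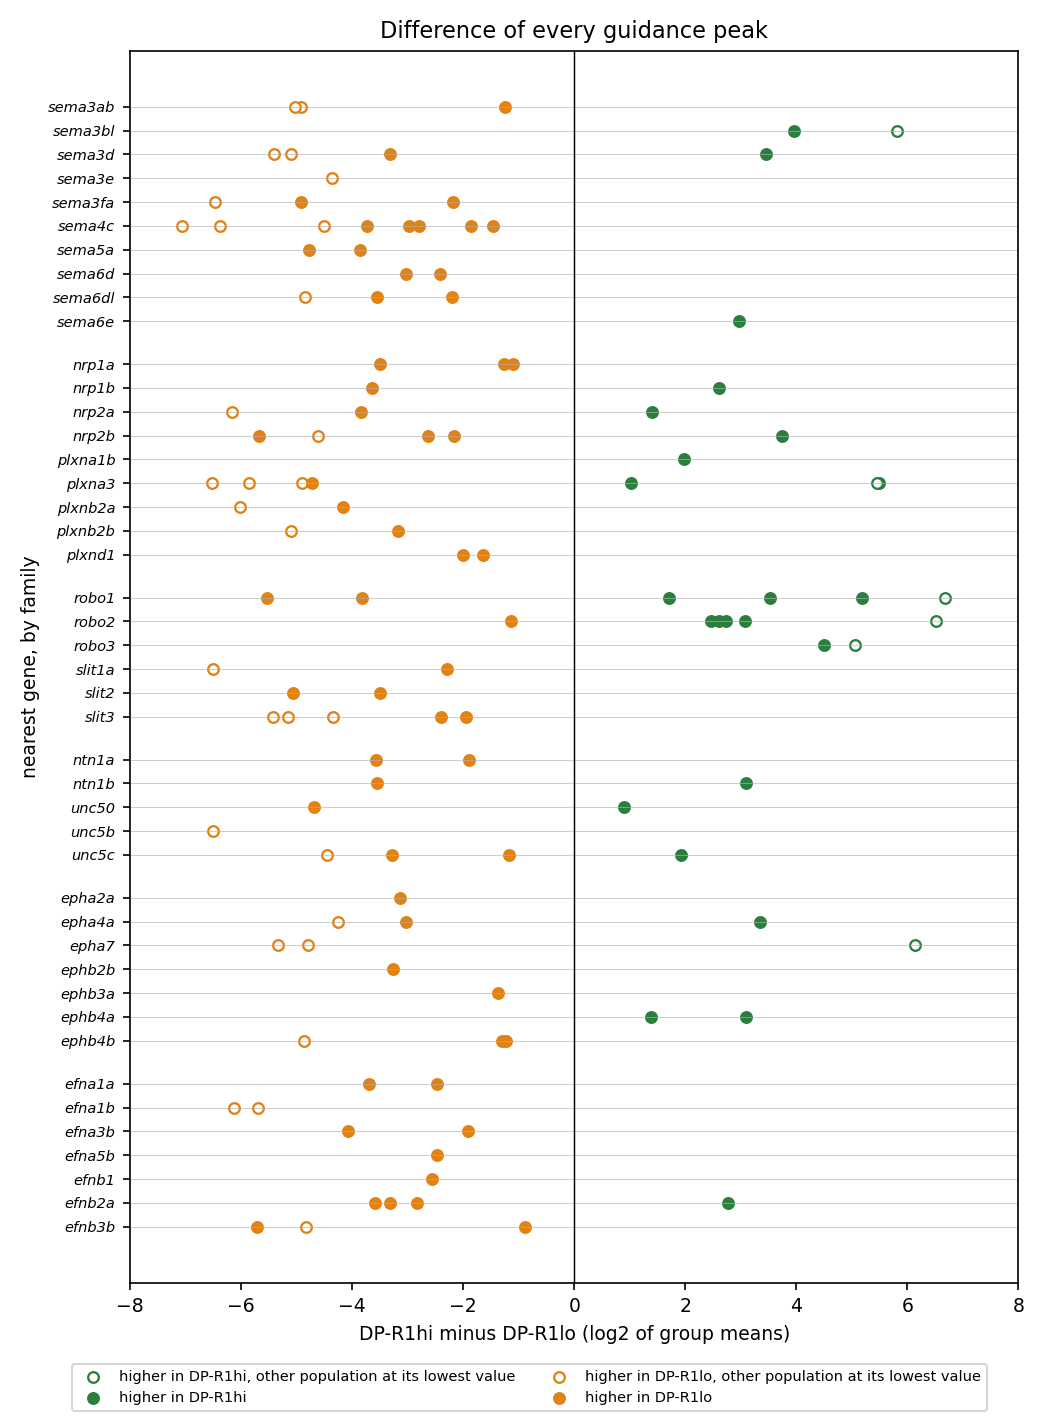
Difference of every guidance peak (x axis, DP-R1hi minus DP-R1lo, log2) by nearest gene and family (y axis). Open circles are peaks with the other population at its lowest value. The semaphorin and ephrin rows lie mostly left of 0, and the robo1, robo2 and robo3 rows hold 11 of the 30 points to the right.

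Among ligands, the semaphorins are secreted (class 3) or membrane-bound proteins (classes 4 to 6 here), of which many act as repellents. They had 29 peaks, with 25 higher in DP-R1lo (86.2%, against 59.2% of all listed peaks) and 4 higher in DP-R1hi. The gene with the most peaks was sema4c, a membrane-bound ligand of plexin B2. All 8 sema4c peaks were higher in DP-R1lo, were intergenic and lay upstream of the TSS on chromosome 5, within 246.7 kb (14091980 to 14338721) that held no other listed peak. A group of 5 lay 8.3 to 63.8 kb from the TSS, with differences of -3.74, -4.51, -6.38, -1.46 and -1.86 from near to far. The other 3 lay 238.2, 251.5 and 254.4 kb away, with differences of -7.06, -2.98 and -2.79. The value of -7.06 was the lowest of any guidance peak, with DP-R1lo at 6.92 and DP-R1hi at its lowest value. The most open sema4c peak was well covered in both populations, at 6.58 in DP-R1hi and 8.04 in DP-R1lo. The plexin B2 genes plxnb2a and plxnb2b also had peaks higher in DP-R1lo only. They were at -6.01 and -4.16 for plxnb2a, whose accession now carries the symbol plxnb2a.1, and at -5.10 and -3.18 for plxnb2b. The plexin B2 peaks at -6.01 and -5.10 had DP-R1hi at its lowest value.

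Class 3 semaphorins act through neuropilins and A-type plexins. They had 10 peaks higher in DP-R1lo (76.9%, against 59.2% of all listed peaks) and 3 higher in DP-R1hi. On chromosome 18, 7 peaks nearest to sema3d and sema3ab followed each other over 221 kb, and 6 of them were higher in DP-R1lo. The sema3ab peaks were the promoter (9413352 to 9414141), at 6.38 in DP-R1hi and 7.62 in DP-R1lo, and 2 intergenic peaks 73.7 and 83.9 kb upstream. Both intergenic peaks had DP-R1hi at its lowest value, with differences of -5.02 and -4.92 against -1.24 at the promoter. For sema3d the peaks at -5.10, -5.41 and -3.31 were higher in DP-R1lo, and the peak in intron 1 of 17 was higher in DP-R1hi (4.99 against 1.53, a difference of 3.46). The 1 peak nearest to sema3e, the ligand of plexin D1, was 209.0 kb away with a difference of -4.36. The sema3fa peaks were at -6.47 in intron 1 of 17, and at -2.18 and -4.92 upstream. The sema3fa peak at -6.47, the sema3e peak and the sema3d peaks at -5.10 and -5.41 had DP-R1hi at its lowest value. In sema3bl the direction was the other way, with 3.96 in intron 1 of 14 and 5.81 at 37.0 kb upstream, the latter with DP-R1lo at its lowest value.

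Of the membrane-bound semaphorins other than sema4c, sema6dl had an open promoter in both populations on chromosome 18 (40364158 to 40365645), at 6.47 in DP-R1hi and 8.68 in DP-R1lo. Its difference of -2.21 was followed by -3.56 in intron 1 of 17. A distal peak 258.4 kb upstream was at -4.85, with DP-R1hi at its lowest value. The RefSeq accession of sema6dl now carries the symbol sema6d, and that of the deposited sema6d the symbol sema6ca. The deposited sema6d had a peak in exon 6 of 18 at -2.41 and one 3.0 kb upstream at -3.03. Both sema5a peaks were intergenic and higher in DP-R1lo, at -4.77 and -3.86. The sema6e peak, in intron 1 of 18, was higher in DP-R1hi, at 5.57 against 2.61. The sema6e accession now carries the symbol sema6cb. Thus 15 of 16 peaks of classes 4 to 6 were higher in DP-R1lo (93.8%, against 59.2% of all listed peaks), 8 of them from sema4c.

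Receptors of semaphorins are the plexins and, as co-receptors that also bind VEGF, the neuropilins. They had 20 peaks higher in DP-R1lo (74.1%, against 59.2% of all listed peaks) and 7 higher in DP-R1hi. At plxnd1, which restrains endothelial sprouting in zebrafish, both peaks were higher in DP-R1lo. The peak over exon 1 of 9 on chromosome 8 (54171541 to 54173000) was among the most open guidance peaks, at 7.20 in DP-R1hi and 8.84 in DP-R1lo, a difference of -1.64. The second lay in intron 2 of 8 and was at 4.23 and 6.24 (-2.01). The chromatin at plxnd1 was therefore open in both populations, with the higher means in ARE.

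At plxna3, known for its part in motor axon guidance, the 7 peaks pointed both ways within 1 gene. The promoter on chromosome 8 (9531553 to 9532354) was higher in DP-R1hi, at 7.48 against 6.45 (1.03). A neighbouring peak 0.8 kb inside the gene was at 5.18 in DP-R1hi and at the lowest value in DP-R1lo (5.45). A peak in intron 9 of 31 was at 5.21 in DP-R1hi and also at the lowest DP-R1lo value (5.48). Between them, 4 intronic peaks 8.1 to 116.5 kb from the TSS had differences of -5.85, -4.91, -4.72 and -6.52, with DP-R1hi at its lowest value in 3 of them. The promoter had the smallest absolute difference of the 7. The plxna1b peak, in intron 1 of 10, was at 6.56 in DP-R1hi and 4.59 in DP-R1lo (1.97).

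All 3 nrp1a peaks were higher in DP-R1lo. The promoter on chromosome 24 (1307329 to 1308378) was at 6.98 in DP-R1hi and 8.08 in DP-R1lo (-1.10), intron 2 of 16 at 5.89 and 7.16 (-1.27), and intron 5 of 16 at 2.30 and 5.80 (-3.50). The difference grew with distance from the TSS over these 3 peaks, while both means fell. For nrp1b, the peak in intron 2 of 16 was higher in DP-R1hi (7.16 against 4.55), and that 110.7 kb upstream was higher in DP-R1lo (2.56 against 6.21). The paralogues thus differed in intron 2, as the listed nrp1a peak there was higher in DP-R1lo.

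Neuropilin 2 genes had peaks of both directions. For nrp2a, intron 1 of 16 was at 7.50 in DP-R1hi and 6.10 in DP-R1lo (1.40), intron 2 of 16 was at -6.16 with DP-R1hi at its lowest value, and an upstream peak was at -3.84. For nrp2b, 4 of 5 peaks were higher in DP-R1lo, from -5.67 in intron 1 of 16 to -2.17 at a peak 458.8 kb upstream. That distal peak had the highest open mean of all guidance peaks, 9.36 in DP-R1lo and 7.19 in DP-R1hi. The nrp2b peak higher in DP-R1hi lay 306.7 kb upstream, between peaks of the other direction, at 5.04 against 1.30. At such distances the nearest gene need not be the one a peak acts on.

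Slits are secreted ligands, and Robos are their receptors. Ligand and receptor genes pointed mostly in opposite directions. All 9 peaks nearest to slit1a, slit2 and slit3 were higher in DP-R1lo. Of the 14 nearest to robo1, robo2 and robo3, 11 were higher in DP-R1hi. Over all listed peaks, 59.2% were higher in DP-R1lo and 40.8% in DP-R1hi. The slit3 peaks spanned 182.7 kb of chromosome 14 (24366454 to 24549137). The 2 upstream of the TSS were open in both populations, at 6.04 and 8.44 (-2.40) and at 6.91 and 8.86 (-1.95). The 3 in introns 3 and 4 of 35 all had DP-R1hi at its lowest value, with differences of -5.15, -4.34 and -5.43. Both slit2 peaks were in intron 4 of 35, at -5.06 and -3.49. The slit1a promoter on chromosome 13 (508059 to 508564) was at 6.37 in DP-R1lo and at the lowest value in DP-R1hi, a difference of -6.51. The peak in intron 4 of 37 of slit1a was at 5.43 and 7.72 (-2.29).

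The robo2 and robo1 genes are neighbours on chromosome 15, and their 12 peaks were the only listed peaks over 846.8 kb (38870666 to 39717417). Of these, 9 were higher in DP-R1hi. The robo2 promoter (38957696 to 38958453) was open in both populations but higher in DP-R1lo, at 6.69 in DP-R1hi and 7.83 in DP-R1lo (-1.14). The other 5 robo2 peaks were all higher in DP-R1hi. They were at 7.12 and 4.66 at 87.4 kb upstream (2.46), 5.86 and 2.78 (3.08) and 7.72 and 5.11 (2.61) in intron 1 of 29, 7.88 and 5.15 in intron 2 (2.73), and 6.25 and the lowest DP-R1lo value in intron 15 (6.52). At robo2 the promoter and the surrounding peaks therefore pointed in opposite directions.

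At robo1, intron 2 of 28 held 3 peaks higher in DP-R1hi, with differences of 5.18, 6.67 and 1.71. The value of 6.67 was the highest of any guidance peak, with 6.40 in DP-R1hi and DP-R1lo at its lowest value. A peak in intron 26 was at 3.53. Peaks of the other direction lay in intron 15, at 2.20 in DP-R1hi and 7.73 in DP-R1lo (-5.53), and in intron 1 (-3.82). Both robo3 peaks were higher in DP-R1hi, at 6.96 against 2.46 in intron 9 of 26 (4.50) and at 4.78 against the lowest DP-R1lo value in intron 1 (5.05). Of the 14 Robo peaks, 12 were intronic. Only 5 lay within 50 kb of the nearest TSS, and 3 of these were higher in DP-R1hi and 2 in DP-R1lo. No listed peak was nearest to robo4, a Robo receptor of endothelial cells.

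**Figure D4:**
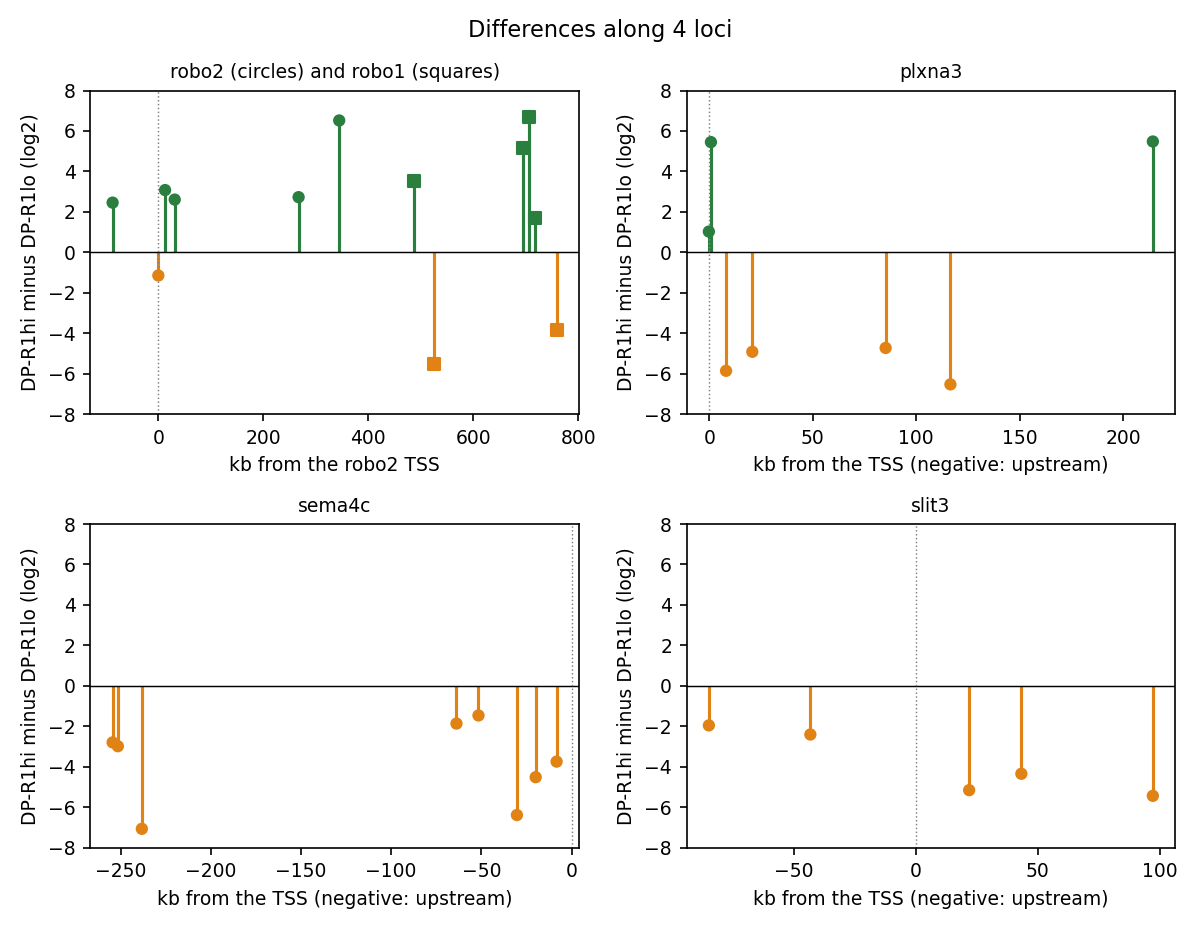
Difference of each peak (y axis, DP-R1hi minus DP-R1lo, log2) against its distance from the TSS in kb (x axis; for robo1 and robo2 the distance from the robo2 TSS), green where higher in DP-R1hi and orange where higher in DP-R1lo. Of the 12 robo1 and robo2 peaks 9 point up, the plxna3 peaks point both ways, and all 8 sema4c and all 5 slit3 peaks point down.

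Netrins are secreted cues that attract through Dcc and repel through Unc5 receptors. Netrin genes had 3 peaks higher in DP-R1lo (75.0%, against 59.2% of all listed peaks) and 1 higher in DP-R1hi, too few to read a direction from. For ntn1a, exon 1 of 6 on chromosome 6 (23454693 to 23455100) was at 1.91 in DP-R1hi and 5.48 in DP-R1lo (-3.57), and a peak 15.5 kb upstream was at 5.37 and 7.26 (-1.89). For ntn1b, intron 1 of 5 was at -3.56, whereas a peak 3.4 kb upstream was higher in DP-R1hi, at 6.32 against 3.22 (3.10). No listed peak was nearest to dcc or ntn4.

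The endothelial netrin receptor unc5b had 1 peak, in intron 1 of 16 on chromosome 13 (29000959 to 29001756), 3.4 kb from the TSS. It was at 6.36 in DP-R1lo and at the lowest value in DP-R1hi, a difference of -6.50. For unc5c, now named unc5cb, the promoter on chromosome 10 was at 5.98 and 7.15 (-1.17) and a peak 61.6 kb upstream at -3.29. Within intron 1 of 7, 57.2 and 121.6 kb from the TSS, its peaks were at 1.92 (7.98 in DP-R1hi and 6.06 in DP-R1lo) and at -4.46. The peak at -4.46 had DP-R1hi at its lowest value. Unc5 genes thus had 4 peaks higher in DP-R1lo (80.0%, against 59.2% of all listed peaks) and 1 higher in DP-R1hi, again too few to read a direction from. The 2 unc50 peaks, 36.0 and 218.4 kb upstream, were at 0.89 and -4.68.

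Ephrins are membrane-bound ligands of the Eph receptor tyrosine kinases, and they signal at contacts between cells. Their share in DP-R1lo was the highest among the 6 families (93.3%, against 59.2% of all listed peaks). They had 14 peaks higher in DP-R1lo and 1 higher in DP-R1hi. The exception belonged to the arterial gene efnb2a. Its 4 peaks were all intergenic on chromosome 9 and 81.8 to 511.7 kb downstream of the TSS, so that no listed peak lay close to it. Their differences were -3.31, 2.77, -3.59 and -2.84 from near to far, and the peak at 2.77 was at 6.36 in DP-R1hi and 3.59 in DP-R1lo. For efnb3b, the peak 1.1 kb upstream had the smallest difference of the peaks higher in DP-R1lo, at 6.96 in DP-R1hi and 7.84 in DP-R1lo (-0.88). Intron 1 of 4 of efnb3b was at -4.83, with DP-R1hi at its lowest value, and a peak 136.7 kb downstream at -5.71. The efnb1 peak, 112.7 kb downstream, was at -2.56.

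All 7 ephrin-A peaks were higher in DP-R1lo. The promoter of efna3b on chromosome 16 (23171943 to 23172764) was at 5.10 in DP-R1hi and 7.01 in DP-R1lo (-1.91), and its upstream peak at -4.07. The gene efna1b lies near it on the same chromosome, and both of its peaks, in intron 1 of 4, had DP-R1hi at its lowest value (-5.70 and -6.12). Its paralogue efna1a was at -2.48 in intron 1 of 4 and at -3.69 upstream. The efna5b peak was at -2.47. Thus both genes of ephrin-A1, a ligand of EphA2, were more open in ARE in intron 1.

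Eph receptor genes had 10 peaks higher in DP-R1lo (71.4%, against 59.2% of all listed peaks) and 4 higher in DP-R1hi. The 2 genes of the venous receptor EphB4 had opposite directions. All 3 ephb4b peaks on chromosome 23 were higher in DP-R1lo, at 6.40 and 7.70 (-1.30) and 6.05 and 7.27 (-1.22) in the 7.6 kb upstream, and at -4.86 in intron 1 of 16, where DP-R1hi was at its lowest value. Both ephb4a peaks were higher in DP-R1hi, at 7.07 against 5.68 (1.39) and 6.64 against 3.55 (3.09). They lay 70.9 and 143.1 kb upstream of ephb4a, in intron 13 of 13 of mat2ab. The ephb4b peaks were thus close to their gene and the ephb4a peaks were not.

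Other EphB receptor peaks were the ephb3a promoter on chromosome 2 (8218847 to 8219978), at 5.52 and 6.89 (-1.37), and intron 1 of 4 of ephb2b at -3.27. Among EphA receptors, epha4a and epha7 each had 2 peaks higher in DP-R1lo and 1 higher in DP-R1hi. The epha7 peaks were intronic. Intron 5 of 17 held one at 6.14, with 5.87 in DP-R1hi and DP-R1lo at its lowest value. It also held one at -4.80, and intron 4 of 17 held one at -5.33, both with DP-R1hi at its lowest value. For epha4a, intron 3 of 16 likewise held both directions, at 3.34 and at -4.26, the latter with DP-R1hi at its lowest value. A downstream epha4a peak was at -3.03. Peaks of opposite direction thus shared an intron in both genes. The epha2a peak, 8.0 kb upstream, was at -3.13.

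Of the 24 vascular guidance genes listed for this description, 17 had listed peaks under their deposited symbol, with 39 higher in DP-R1lo and 11 higher in DP-R1hi. The share higher in DP-R1lo was 78.0%, against 74.8% of all guidance peaks and 59.2% of all listed peaks. The sema6d counted here is the deposited one, now sema6ca, and the 3 peaks of sema6dl, now sema6d, were not counted. The 7 without a peak were efnb2b, robo4, ntn4, sema3aa, sema3fb, sema3gb and dcc. Of 107 genes in the current RefSeq table whose symbols match the families, 63 had no listed peak. Absence from the lists is not evidence that a gene was equally open in both populations. How many of all RefSeq genes lack a listed peak was not counted, so 63 of 107 cannot be called high or low.

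By annotation, 56 guidance peaks lay in introns (47.1%, against 24.8% of all listed peaks), 51 were intergenic (42.9%, against 62.8%), 9 lay at a promoter (7.56%, against 5.35%) and 3 in exons (2.52%, against 4.94%). In 54 of the 56 intronic peaks the intron belonged to the nearest gene's own transcript. Intron 1 held 25 of the 56 (44.6%, against 33.6% of all intronic peaks). The directions differed by annotation. Of the intergenic guidance peaks 45 of 51 (88.2%) were higher in DP-R1lo, against 59.4% of all intergenic peaks, and of the intronic ones 33 of 56 (58.9%), against 60.0%. The 12 intronic Robo peaks are among the latter. The median distance to the TSS was 36970 bp (31017 bp over all), 65 peaks lay within 50 kb (54.6%, against 63.9%), and the median width was 480 bp (482 bp over all).

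Promoter peaks differed least in size. The 9 guidance promoters had a median absolute difference of 1.24, against 4.40 for the intronic and 3.31 for the intergenic guidance peaks. Over all listed peaks these medians were 1.59, 3.52 and 3.49, so that small differences at promoters were found in the lists as a whole. Apart from slit1a, the 8 promoters had absolute differences of 1.03 to 2.21 and means of 5.10 to 6.98 in the less open population, so they were open in both. Among the 9, 8 were higher in DP-R1lo (88.9%, against 52.0% of all 506 promoter peaks), and plxna3 was the exception. In the 8 of these genes with further peaks, 21 of 22 of the further peaks had a larger absolute difference than the promoter, and 10 of 22 pointed the other way. Of these 10, 5 belonged to robo2, 4 to plxna3 and 1 to unc5c. The same counts over all genes with a promoter peak were not made.

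**Figure D5:**
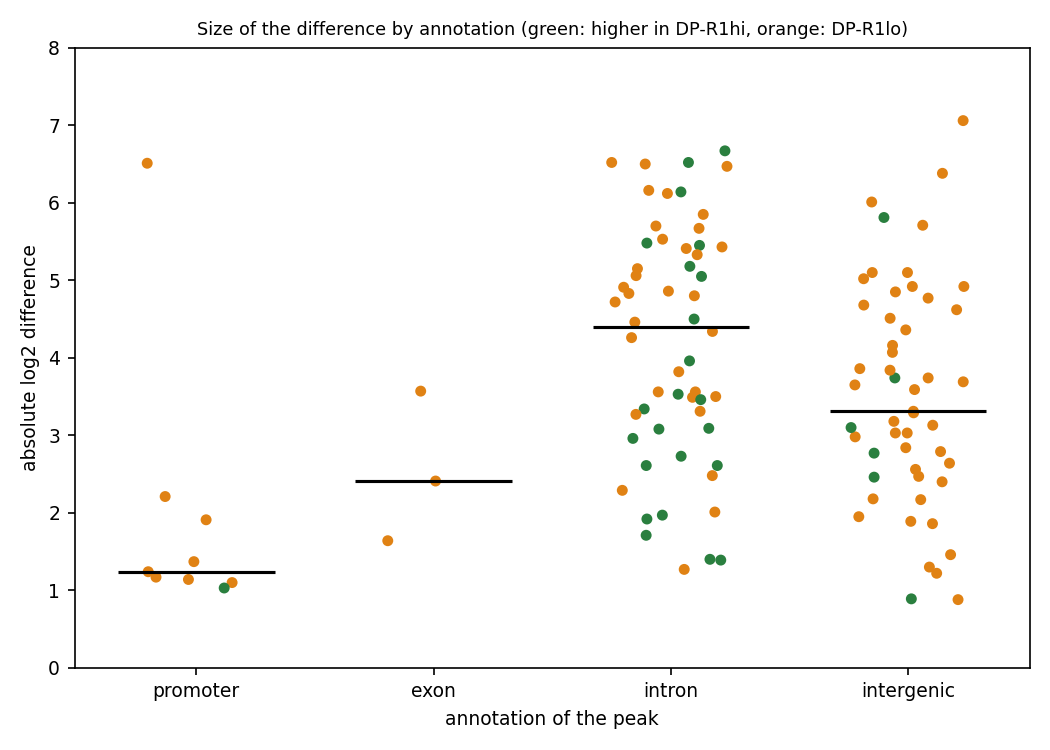
Absolute log2 difference (y axis) of the guidance peaks by annotation (x axis), green where higher in DP-R1hi and orange where higher in DP-R1lo, with medians as lines at 1.24 for promoters, 4.40 for introns and 3.31 for intergenic peaks. The promoter point at 6.51 is slit1a.

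Genes of the same pathways outside the families were counted as well, among them ligands, receptors, adaptors and effectors. Of 44 such genes, 11 had a listed peak, and the same share over all genes was not computed. They had 17 peaks higher in DP-R1lo (65.4%, against 59.2% of all listed peaks) and 9 higher in DP-R1hi. The most peaks, 6, were nearest to flrt3, which like flrt2 encodes a ligand of Unc5 receptors. They were annotated to introns 3, 5 and 6 of 19. Those in introns 5 and 6 lay at -210.7, -267.7 and -400.1 kb from the flrt3 TSS, where negative values are upstream. For flrt2, the peaks with differences of -2.48 and 4.50 lay at -322.1 and -633.7 kb. Peaks that far away need not act on the nearest gene. For flrt2, 3 peaks were higher in DP-R1lo (-1.04, -7.69 and -2.48) and 1 in DP-R1hi (4.50), and for flrt3, 4 were higher in DP-R1lo and 2 in DP-R1hi. The flrt2 peaks at -7.69 and 4.50 had the other population at its lowest value, so the open population alone set those differences. The Fyn kinase gene fynb had peaks at -2.35, -6.20 and -5.48 and 1 at 2.50. Both peaks of dpysl2b, which encodes a collapsin response mediator protein, were higher in DP-R1lo (-1.71 and -5.03). Of the related genes, dpysl5a had a peak at -5.43 and dpysl5b had one of the other direction at 1.51. The fynb peaks at -6.20 and -5.48, the dpysl2b peak at -5.03 and the dpysl5a peak had DP-R1hi at its lowest value. Both peaks of dscama, a gene of a neuronal adhesion receptor, were higher in DP-R1hi (1.17 and 2.32).

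Peaks nearest to marker genes of cell types were counted in the same lists, where 59.2% of all peaks were higher in DP-R1lo. They were counted at any distance, so a peak need not act on the marker gene. All 6 peaks of the HE markers, at myb, gfi1aa and gfi1ab, were higher in DP-R1hi, and no listed peak was nearest to runx1, gata2b or dnmt3bb.1. Of the peaks of primitive blood markers, 7 were higher in DP-R1hi and 1 in DP-R1lo. All 14 peaks of pan-endothelial markers were higher in DP-R1lo, as were 10 of 13 of arterial (76.9%) and 14 of 16 of venous markers (87.5%). Of 14 peaks of neuronal markers, 11 were higher in DP-R1lo (78.6%) and 3 in DP-R1hi. Muscle markers had 1 peak and neural crest and sclerotome markers 3, all higher in DP-R1lo, and pronephros markers had 0. No listed peak was nearest to the neuronal genes elavl4, snap25a or gap43. The same held for arterial tbx20, pan-endothelial tie1, venous stab1l, dab2 and mrc1a, and primitive blood hbae1.1, hbbe1.1 and mpx. It also held for muscle myod1 and actc1b, and for sox10 and foxd3 of neural crest and sclerotome. Neurons use guidance genes as well, and the part that endothelial, venous, primitive blood or neuronal cells had in the guidance peaks of either direction was not tested.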

How the data were processed

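The members and gene lists were chosen with earlier results of these data known. ATAC-seq reads were trimmed (Trimmomatic 0.32) and aligned to GRCz10, named Zv10 in the study, with BWA 0.7.12. Peaks were called against genomic DNA (MACS2), and the authors compared DP-R1hi and DP-R1lo in DiffBind with edgeR after 1 outlying replicate of each had been removed. The differential peaks were annotated with HOMER and filtered for an absolute log2 fold change above 0.7. The deposited values are the authors' log2 mean concentrations per population, 1 of each per peak, with signed distances to the TSS in bp. The lists have no header, so that the columns of means were assigned to the populations by the direction of each list. Another column, which holds the authors' fold change, was not used.

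Differences of the means, counts, shares and medians were computed in Python 3.11.15 with numpy 2.4.6, pandas 2.3.3 and scipy 1.17.1, and figures were drawn with matplotlib 3.10.9. Width counts both end bases. Parsing was tested on simulated lists. Of 45 accessions of members, 44 matched the RefSeq table of GRCz12tu, used for names only. Alternatives required a larger difference, a distance within 50 kb or no lowest value, merged peaks within 1 kb or read current symbols. Genes named are those with at least 3 peaks, with a promoter or exon peak, with the 5 largest differences or 3 highest open means per direction, or on the vascular list. Those named besides were chosen after their values were seen. Sequences and promoter motifs were not analysed here.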

Additional observations from a re-analysis of the deposited data

How the results depend on the processing

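No paired analysis was possible because only means of each population were given, without single replicates, and leave-one-out fits were not run for the same reason. Of 88 recomputed values, 70 stayed within 1.5 times for counts or within the 95% binomial interval for shares and medians, and 18 moved. A count, or a median within a fixed direction, could not reverse, so that no number of reversals is given. The share of guidance peaks higher in DP-R1lo stayed between 72.0% (without peaks at the lowest value) and 76.9% (within 50 kb), inside its exact interval of 66.0 to 82.3%. That interval covers counting only and takes peaks as independent, which peaks of 1 locus are not. It is no test against the share over all listed peaks, and the alternatives draw on the same peaks. Leaving out unc50, an alternative chosen after seeing the data, moved none of the values recomputed for it. Counts by family were not recomputed without unc50.

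Within 50 kb of the TSS, 15 peaks higher in DP-R1hi and 50 higher in DP-R1lo were left, with a median distance of 11038 bp. The counts higher in DP-R1lo moved to 11 for semaphorins, 11 for plexins and neuropilins, 5 for netrins, Unc5 and Dcc and 7 for ephrins. The netrin, Unc5 and Dcc counts include unc50, whose peak higher in DP-R1lo, 218.4 kb upstream, is among those lost. Those higher in DP-R1hi moved to 3 for Slit and Robo, 1 for Eph receptors and 0 for ephrins. Slit and Robo, with 11 peaks higher in DP-R1hi and 12 in DP-R1lo at any distance, thus had 3 and 9 within 50 kb. Without peaks at the lowest value, 59 peaks higher in DP-R1lo were left, with a median difference of -3.03. The counts in DP-R1lo moved to 15 for semaphorins, 13 for plexins and neuropilins and 6 for Eph receptors. With an absolute difference of at least 2, the promoter share moved to 2.06%, and counts in DP-R1hi moved to 4 for plexins and neuropilins and 1 for netrins, Unc5 and Dcc. All 3 settings keep fewer peaks by construction.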
